A study of Mus musculus with 4 samples.

Results

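Axon guidance genes encode the ligands and receptors that steer growing axons, and also migrating cells and vessels, by attraction or repulsion. The set described here held every annotated accessible region (peak) that was assigned to a semaphorin, plexin, neuropilin, Slit, Robo, ephrin, Eph receptor, netrin or Unc5 gene by its symbol. It comprised 105 peaks of 42 gene names, out of 15221 annotated peaks of 8173 genes and 85925 consensus peaks in all. One of the 42 names, Plxna4os1, is an antisense transcript at the Plxna4 locus and is a member by its letters alone. The RefSeq table holds 69 symbols that match the same letters, and 27 of these had no annotated peak, among them Nrp1, Plxnb1, Epha4, Slit1 and Unc5b.

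Open chromatin was mapped with ATAC-seq, in which a transposase cuts accessible DNA and tags it for sequencing. Periosteal stem/progenitor cells were taken from the jaw (the mandibular angle) at 8 weeks of age and induced to form bone for 3 days with dexamethasone, β-glycerophosphate and ascorbic acid. The genotypes compared were Ctsk-iCre;Plagl1fl/fl (the knockout, 2 libraries) and Plagl1fl/fl (the control, 2 libraries). Both carry the floxed Plagl1 alleles, and the Cre, driven by the cathepsin K gene, is named for the knockout alone, so an effect of the Cre and an effect of the Plagl1 deletion cannot be told apart. Plagl1 encodes a zinc finger transcription factor. It had 0 annotated peaks, so the deletion itself was not checked. Whether the 2 libraries of a genotype stem from different animals is not given in the labels, so the p-values cannot be taken to cover differences between animals.

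Each peak carried 1 fold change, 1 mean signal as depth-scaled counts (CPM), 1 F statistic and 1 false discovery rate (FDR) in the authors' deposited table. All folds, CPM and FDR values given below come from that table, and values per library are not analysed here. Positive folds are read as higher in the knockout, because the headers do not name the direction. The standard error (SE) beside a fold is the one implied by F, namely the size of the log2 fold divided by √F. Peaks with a deposited FDR under 0.05 are called gained (fold above 0) or lost (fold below 0), with the FDR adjusted by the authors over all consensus peaks. Annotation was deposited only for peaks past a p of 0.05 whose log2 fold was 0.2 or more in either direction, so each member passed those limits by selection. A gene said to be gained or lost by a value has a peak with that log2 fold, and RNA was not measured here. In bulk cells, fewer cells of a type and less accessibility per cell cannot be told apart.

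Semaphorins are secreted or membrane-bound ligands that signal through plexins, and the secreted class uses neuropilins as co-receptors. Slit proteins bind Robo receptors, netrins bind Dcc and Unc5 receptors, and ephrins on one cell bind Eph receptor tyrosine kinases on its neighbour, with signals in both directions. In bone these families are known for exchanges between osteoclasts, osteoblasts, nerves and vessels, as in the repression of osteoblasts by Sema4d and the pairing of Efnb2 with Ephb4.

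Of the lost peaks, 4 lay over start sites, at Epha3, Epha7, Ephb4 and the downstream of 2 solved start sites of Sema4b. Their promoters are shown because every other called member peak lay more than 1 kb from its start site. Each line gives the 250 bases upstream of the RefSeq start on the gene's own strand, 5′ to 3′, from the GRCm38.p6 table, with a GC box (GGGCGGG on either strand) in capitals. The regions are chr16:63864176-63864425 (minus strand), chr4:28812881-28813130 (plus), chr5:137349859-137350108 (plus) and chr7:80198338-80198587 (plus).
Epha3: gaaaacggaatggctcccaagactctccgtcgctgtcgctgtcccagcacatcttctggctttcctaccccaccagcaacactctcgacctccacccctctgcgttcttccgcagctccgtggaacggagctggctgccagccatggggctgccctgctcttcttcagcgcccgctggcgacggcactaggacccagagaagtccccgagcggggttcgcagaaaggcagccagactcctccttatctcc
Epha7: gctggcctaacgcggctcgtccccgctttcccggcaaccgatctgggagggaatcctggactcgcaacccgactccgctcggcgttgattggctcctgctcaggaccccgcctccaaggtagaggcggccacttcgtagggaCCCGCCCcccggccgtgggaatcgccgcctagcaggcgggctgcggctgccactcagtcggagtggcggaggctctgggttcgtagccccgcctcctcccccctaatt
Ephb4: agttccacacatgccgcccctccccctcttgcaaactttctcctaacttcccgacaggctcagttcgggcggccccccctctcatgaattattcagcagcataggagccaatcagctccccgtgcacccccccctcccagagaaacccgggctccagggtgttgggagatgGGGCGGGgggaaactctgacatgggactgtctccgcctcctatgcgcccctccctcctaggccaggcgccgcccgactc
Sema4b: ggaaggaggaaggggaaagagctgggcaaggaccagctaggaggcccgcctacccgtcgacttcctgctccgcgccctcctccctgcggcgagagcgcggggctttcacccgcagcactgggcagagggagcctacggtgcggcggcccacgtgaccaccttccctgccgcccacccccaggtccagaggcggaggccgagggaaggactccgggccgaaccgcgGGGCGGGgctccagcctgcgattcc

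These promoters were rich in G and C, at 62.8% for Epha3, 69.2% for Epha7, 64% for Ephb4 and 72.4% for Sema4b, against a median of 52.4% over 32851 promoters of the same length. They held 16, 25, 12 and 23 CpG pairs in the same order, against a median of 6. The GC box was found in 3 of the 4, against 23.4% of all promoters. The core of the PLAG family motif (GGGGCCC, both strands) was found in 0 of 4, against 5.69% of all promoters, and the CACCC box (CCCCACCC, both strands) in 0 of 4, against 9.05%. For Epha7 the upstream of 2 RefSeq starts under 100 bases apart was used. The deposited peaks reached at least 382 bases upstream of their solved start sites, beyond the printed stretch. The background held all promoters, accessible or not, and no shares were computed for promoters with uncalled peaks. Whether these traits go with the loss or with any accessible start site was therefore not tested. A match of letters is a description and not a bound site.

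Of the 105 member peaks, 25 were gained in the knockout and 12 were lost. The called share was 35.2%, against 30.6% of all annotated peaks and 5.62% of all consensus peaks, of which 3.14% were gained and 2.48% lost. The gained share was 23.8% against a background of 17.6%, and the lost share was 11.4% against 13.1%. By gene, 15 of 42 names had a gained peak and 11 a lost one, with Sema7a in both counts, against 24.5% and 20.6% of all annotated genes. Folds were above 0 in 64 of the 105 peaks and below 0 in 41, against 56.7% and 43.3% of all annotated peaks. The median log2 fold was 0.35 over member peaks and 0.30 over all annotated peaks, so as a whole the set lay close to its background. Counts varied between its classes: 6 of 11 Nrp2 peaks, 6 of 14 ephrin peaks, 5 of 17 plexin peaks and 7 of 35 semaphorin peaks were gained, against 0 of 11 Eph receptor peaks and 0 of 10 Slit peaks. Of the Eph receptor peaks, 5 were lost, and 10 of the 11 had folds below 0. No difference between classes was tested.

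**Figure D1:**
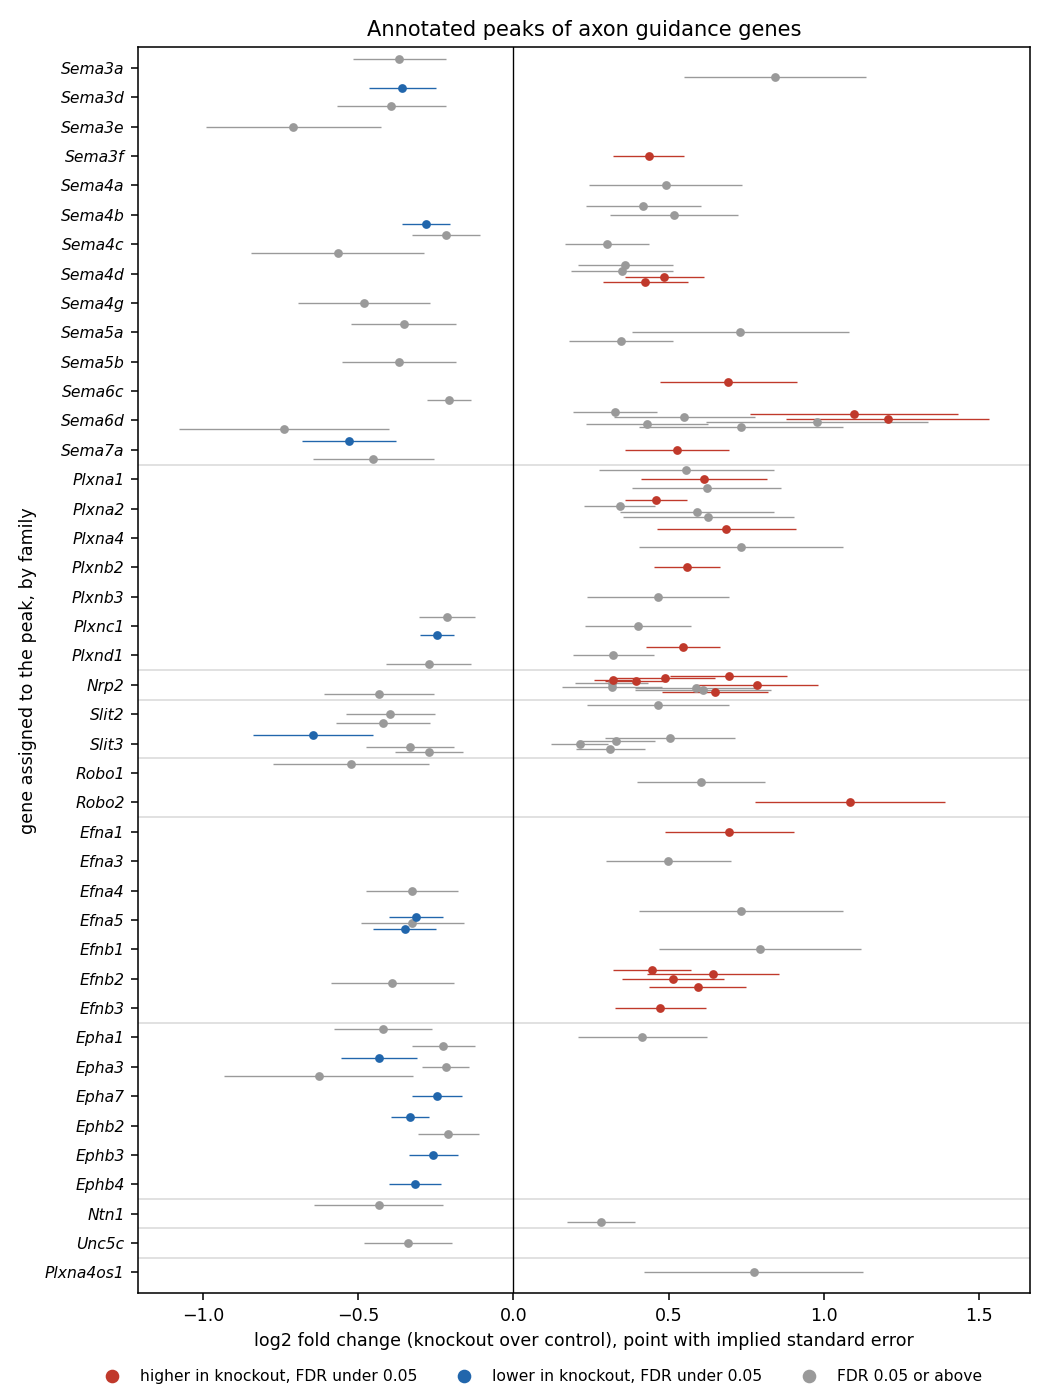
Log2 fold (knockout over control, horizontal axis) of each of the 105 annotated peaks, in rows by gene and grouped by family; points are deposited folds and bars the implied SE, red gained, blue lost, grey not called. The red points number 6 at Nrp2 and 4 at Efnb2, and the other gained genes have 1 or 2 each; the Eph receptor rows hold 5 blue points, 0 red points and 1 point above 0.

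Nrp2, the neuropilin that serves Sema3f and the lymphatic growth factor Vegfc as a co-receptor, had 11 annotated peaks, of which 6 were gained and 0 lost. Nrp2 had been noted for its many changed peaks, so this count describes why it is named and is no test. With Nrp2 itself included, 8 of the 8173 annotated genes had as many or more gained peaks, and 20 had as many or more annotated peaks. The strongest peak of the locus, at 51.7 CPM in intron 2 of 15 (chr1:62763645-62764678, mm39), had a log2 fold of 0.32 with an SE of 0.0611 and a deposited FDR of 8.08e-05. Shortly before it in the same intron, a peak of 18.8 CPM (chr1:62760655-62761357) was gained by 0.39 with an SE of 0.0999 and a deposited FDR of 0.00569. The largest fold, 0.78 with an SE of 0.196 and a deposited FDR of 0.00504, was at chr1:62754218-62754464 in intron 1, over a B3 SINE repeat. The peaks of largest fold were thus among the weaker ones, and the most firmly called peak had one of the smaller folds.

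Further along the gene, a peak in intron 2 (chr1:62775568-62776082) was gained by 0.49 with an SE of 0.158 and a deposited FDR of 0.0410, and a peak in intron 3 (chr1:62782303-62782892) by 0.69 with an SE of 0.188 and a deposited FDR of 0.0111. The sixth gained peak lay 24114 bp upstream of the start (chr1:62717852-62718872), with a log2 fold of 0.65, an SE of 0.171 and a deposited FDR of 0.00881. Of the 5 uncalled Nrp2 peaks, 4 had folds between 0.32 and 0.61. The fifth, at -0.43 with a deposited FDR of 0.132, lay 81749 bp upstream inside intron 22 of Pard3b, the neighbouring gene. The peak at -7332 bp missed the threshold narrowly, with a log2 fold of 0.59 and a deposited FDR of 0.0501.

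Because annotation depended on p, all consensus peaks around Nrp2 were also counted, whatever their p. The choice of Nrp2 still rested on its changed peaks, so these counts describe the locus and are no test. Within 50 kb of the start site there were 18 peaks, of which 6 were gained, 0 were lost and 17 had folds above 0, with a median log2 fold of 0.32. The 6 gained peaks are those already given. The median over peaks within 50 kb of any solved start site was 0.012, with 4.45% gained. Among the member genes, Sema4d had a higher window median, at 0.35 with 10 of 13 peaks above 0, and Plxnc1 was next below Nrp2, at 0.28. Within 100 kb there were 29 peaks with 7 gained and 0 lost; the seventh, at 0.54 with a deposited FDR of 0.0105, was assigned to 4930487H11Rik. Upstream, 5 of 5 peaks within 30 kb of the start had folds above 0, and between 30 and 100 kb 3 of 6 did. The peak over the start site itself had a log2 fold of -0.04 with an SE of 0.0859, a deposited FDR of 0.830 and 26.1 CPM. These peaks share 1 locus and are not replicates of each other.

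**Figure D2:**
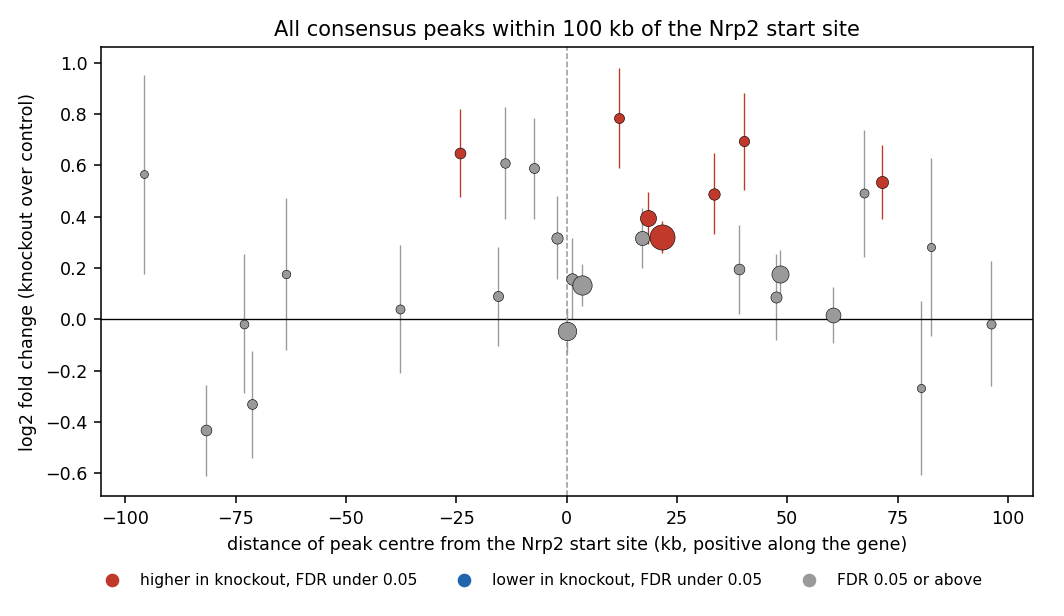
Log2 fold (knockout over control, vertical axis) of all 29 consensus peaks within 100 kb of the Nrp2 start site against the distance of their centre in kb, positive along the gene. Bars are the implied SE, point area grows with mean CPM and the dashed line is the start site; the 7 red points are gained peaks, and the large point on the dashed line, at -0.04, is the start-site peak.

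Of the Nrp2 peaks nearest the limit of annotation, the peak 2076 bp upstream had a log2 fold of 0.32 and a p of 0.0479 and was annotated, and the peak at chr1:62790289-62791229 had a log2 fold of 0.18 and a p of 0.0560 in edgeR's test and was not. Nrp1, the other neuropilin, had 0 annotated peaks.

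The semaphorins, the ligands of these receptors, had 35 annotated peaks of 14 genes, with 7 gained, 3 lost and a median log2 fold of 0.35. Sema3f, the secreted ligand that acts through Nrp2, had a single annotated peak in intron 2 of 17 (chr9:107577325-107577828), gained by 0.44 with an SE of 0.114 and a deposited FDR of 0.00841. Sema4d, a membrane-bound ligand of plexin-B receptors that osteoclasts use to repress osteoblasts, had 4 annotated peaks, all with folds above 0. Both gained Sema4d peaks lay in intron 2 of 16, with log2 folds of 0.49 (deposited FDR 0.00889) and 0.43 (deposited FDR 0.0397). Its peak 417 bp upstream of a start site was not called, at 0.35 with a deposited FDR of 0.204.

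Sema6d, a transmembrane semaphorin that binds plexin-A1, had 8 annotated peaks. Its gained peaks carried the largest folds of the set, 1.21 with an SE of 0.328 in intron 1 of 16 (deposited FDR 0.0116) and 1.10 with an SE of 0.336 in an intergenic region (deposited FDR 0.0289). Both were weak, at 2.05 and 1.97 CPM, against a median of 5.51 CPM over all consensus peaks. Within 100 kb of a Sema6d start site there were 15 consensus peaks, and 2 were gained and 0 lost. Sema6d, Efna5 and Plxna4 each had an uncalled peak at 2.01 CPM with a log2 fold of 0.73 and deposited FDR values of 0.175 to 0.176.

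Sema4b, a membrane-bound semaphorin, was lost by 0.28 at its downstream start site (SE 0.0780, 32.3 CPM, deposited FDR 0.0135), whose promoter is printed above. That call ended when the running median of the fold along signal was subtracted (FDR 0.0789). Its other annotated peaks, both in intron 1, had folds of 0.52 and 0.42 with deposited FDR values of 0.118 and 0.168. Sema7a, a lipid-anchored semaphorin whose receptors include Plxnc1, had a gained peak in intron 6 of 13 (log2 fold 0.53) and a lost peak 27765 bp downstream of the start (log2 fold -0.53), with deposited FDR values of 0.0379 and 0.0168. The remaining called semaphorin peaks were a gained one at the end of Sema6c (log2 fold 0.69) and a lost one in intron 5 of Sema3d (log2 fold -0.36). Sema3a, the Nrp1 ligand known to favour bone formation, had uncalled peaks with log2 folds of 0.84 and -0.37, and Sema3e, the ligand of Plxnd1, had an uncalled peak at -0.71.

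The plexins, receptors with a GTPase-activating domain inside the cell, had 17 annotated peaks of 7 genes, with 5 gained, 1 lost and a median log2 fold of 0.55. Plxnb2, a receptor of class 4 semaphorins, had 1 annotated peak, in intron 1 of 37 (chr15:89061857-89062234), gained by 0.56 with an SE of 0.107 and a deposited FDR of 9.33e-05. Plxnd1, which binds Sema3e in endothelium, was gained by 0.55 in intron 8 of 35 (chr6:115950225-115950602; SE 0.119, deposited FDR 0.000883). Plxna2, a partner of neuropilins, was gained by 0.46 in intron 3 of 31 (chr1:194354037-194354978; SE 0.100, deposited FDR 0.00092). These 3 peaks had between 13.2 and 18.6 CPM, above the median of the members.

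The lost plexin peak lay 46644 bp upstream of Plxnc1, the Sema7a receptor, at chr10:94826367-94828336. It was the strongest member peak, at 67.0 CPM, with a log2 fold of -0.24, an SE of 0.0549 and a deposited FDR of 0.00129. The other gained plexin peaks were assigned to Plxna4 and Plxna1, at log2 folds of 0.69 and 0.61, and the Plxna1 peak lay inside intron 6 of the neighbouring gene Chchd6. Assignment went by the nearest start site, and 9 of the 105 member peaks lay inside another gene.

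The Slit ligands had 10 annotated peaks of 2 genes, with 0 gained, 1 lost and a median log2 fold of -0.03. The lost peak lay in intron 4 of 35 of Slit3 (chr11:35178943-35179536), at a log2 fold of -0.65 with an SE of 0.193, 5.55 CPM and a deposited FDR of 0.0243. Of the 7 annotated Slit3 peaks, 4 had uncalled folds above 0 and 3 had folds below 0, the lost one included. Of the 4 above 0, 3 lay in introns 1 and 4 and the other 67831 bp upstream. Of all 34 consensus peaks within 200 kb of the Slit3 start site, 20 had folds above 0 and 14 below, so the lost peak did not share its direction with most of its neighbours. The 3 annotated Slit2 peaks were uncalled, with log2 folds from -0.42 to 0.47. Of the Robo receptors, Robo2 was gained by 1.09 in intron 1 of 28 (SE 0.306, 2.29 CPM, deposited FDR 0.0157), and Robo1 had uncalled peaks at 0.60 and -0.52.

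The ephrins had 14 annotated peaks of 7 genes, with 6 gained and 2 lost. Efnb2, the membrane-bound ligand of Ephb4, held 4 of the gained peaks. The nearest lay in intron 1 of 4 (chr8:8699577-8700406), with a log2 fold of 0.59, an SE of 0.156 and a deposited FDR of 0.0083. The other 3 lay 128089, 208855 and 360930 bp downstream of the start, in intergenic sequence, with log2 folds of 0.51, 0.64 and 0.45 and deposited FDR values of 0.0394, 0.0454 and 0.0148. The fifth annotated Efnb2 peak was uncalled, at -0.39.

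Counted without regard to p, the 31 consensus peaks within 400 kb of the Efnb2 start site split into 15 with folds above 0 and 16 below, with 5 gained and 0 lost. The fifth gained peak of that window was assigned to 4933430N04Rik, at 0.93. The peak over the Efnb2 start site had a log2 fold of -0.17 with an SE of 0.0717 and a deposited FDR of 0.145. The Efnb2 calls thus stood among neighbours of either sign.

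**Figure D3:**
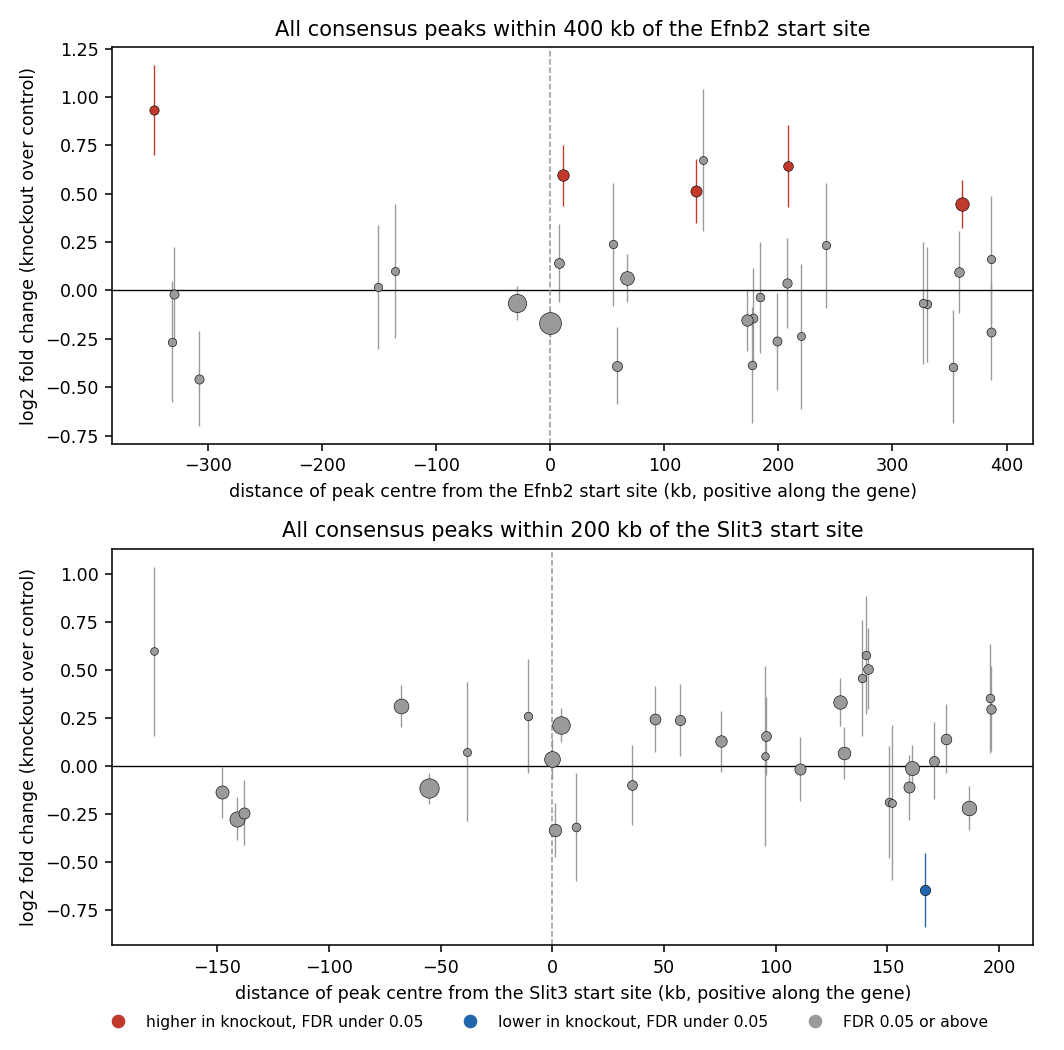
Log2 fold (knockout over control, vertical axes) of all 31 consensus peaks within 400 kb of the Efnb2 start site (upper panel) and all 34 within 200 kb of the Slit3 start site (lower panel), against distance in kb along the gene. Bars are the implied SE and point area grows with mean CPM; the upper panel has 5 gained peaks in red and the lower panel 1 lost peak in blue, each among grey peaks on both sides of 0.

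Efna1 was gained by 0.70 at 14813 bp upstream of its start (SE 0.208, 4.41 CPM, deposited FDR 0.0245), and Efnb3 by 0.47 in its 3′ UTR (SE 0.145, 8.94 CPM, deposited FDR 0.0294). Efna5, a lipid-anchored ligand of EphA receptors, held both lost ephrin peaks, at 1232 bp upstream (log2 fold -0.31, SE 0.0873, deposited FDR 0.0141) and 103744 bp upstream over a long terminal repeat (log2 fold -0.35, SE 0.101, deposited FDR 0.0198). The lost ephrin peaks were stronger, at 25.8 and 19.2 CPM, than the gained ones, whose median was 7.40 CPM. Both lost calls ended with the running median subtracted (FDR 0.0748 and 0.0657).

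The Eph receptors, the kinases that bind ephrins, had 11 annotated peaks of 6 genes, with 0 gained, 5 lost and a median log2 fold of -0.26. The lost peaks belonged to 5 genes. Ephb2 was lost by 0.33 in intron 3 of 15 (chr4:136469307-136470401), with an SE of 0.0618, 52.8 CPM and a deposited FDR of 4.83e-05, the smallest FDR among the members. Ephb4, the receptor of Efnb2, was lost by 0.32 over its start site (chr5:137347794-137348812), with an SE of 0.0846, 27.5 CPM and a deposited FDR of 0.00973. Epha3 was lost by 0.43 over its start site (chr16:63684240-63685311), with an SE of 0.123, 13.1 CPM and a deposited FDR of 0.0169. Each of these folds was more than 3 times its SE, which adds nothing to the call, because the SE is itself derived from F.

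Ephb3 was lost by 0.26 in intron 1 of 15 (chr16:21029430-21030214; SE 0.0794, deposited FDR 0.0301) and Epha7 by 0.25 over its start site (chr4:28812749-28813454; SE 0.0812, deposited FDR 0.0455). The single Eph receptor peak with a fold above 0, at 0.42 with a deposited FDR of 0.242, was assigned to Epha1 but lay inside intron 2 of 2010310C07Rik. An uncalled Epha1 peak below 0, at -0.42 with a deposited FDR of 0.0933, lay in the same intron. The folds were small in this class, and its signal was high, with a median of 20.4 CPM against 6.98 CPM over all members. High signal was itself accompanied by folds below 0 across all peaks, as given further down. When the running median of the fold along signal was subtracted, the Ephb2 and Epha3 peaks kept their calls (FDR 0.00136 and 0.0295), whereas Ephb4, Ephb3 and Epha7 lost them (FDR 0.0583, 0.148 and 0.193).

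Ntn1, a netrin, had 2 uncalled peaks at log2 folds of -0.43 and 0.28, and its receptor gene Unc5c had 1 at -0.34. The Plxna4os1 peak, 999 bp from its start, was uncalled at 0.77 with a deposited FDR of 0.185. Netrins and Unc5 receptors thus had 0 of 3 peaks called in the authors' edgeR test, and 3 of 3 had an unadjusted p under 0.05, by selection.

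For 39 of the 42 names a start site could be solved from the distances in the table, and 34 consensus peaks lay over a start site of 33 of these genes. None of the 34 was gained and 4 were lost, a called share of 11.8% against 10.3% of the 4634 peaks over any solved start site, of which 2.5% were gained and 7.77% lost. With the running median of the fold along signal subtracted, 1 of the 4 lost calls stayed, that of Epha3, and those of Epha7, Ephb4 and Sema4b ended. Folds were below 0 in 26 of 34 member start-site peaks and in 3202 of all 4634, and the medians were -0.13 and -0.06. Lower folds at start sites were therefore a property of the whole comparison as well. The 6 Eph receptor start-site peaks had folds from -0.43 to -0.063, and 3 of them were lost. Of the 15 genes with a gained peak, 11 had a start-site peak, with log2 folds from -0.26 at Plxna4 to 0.20 at Robo2 and a median of -0.07. Folds were below 0 in 9 of these 11 peaks, and 0 were called in the authors' edgeR test, though Efnb2, Plxnd1 and Sema6c had an unadjusted p under 0.05.

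**Figure D4:**
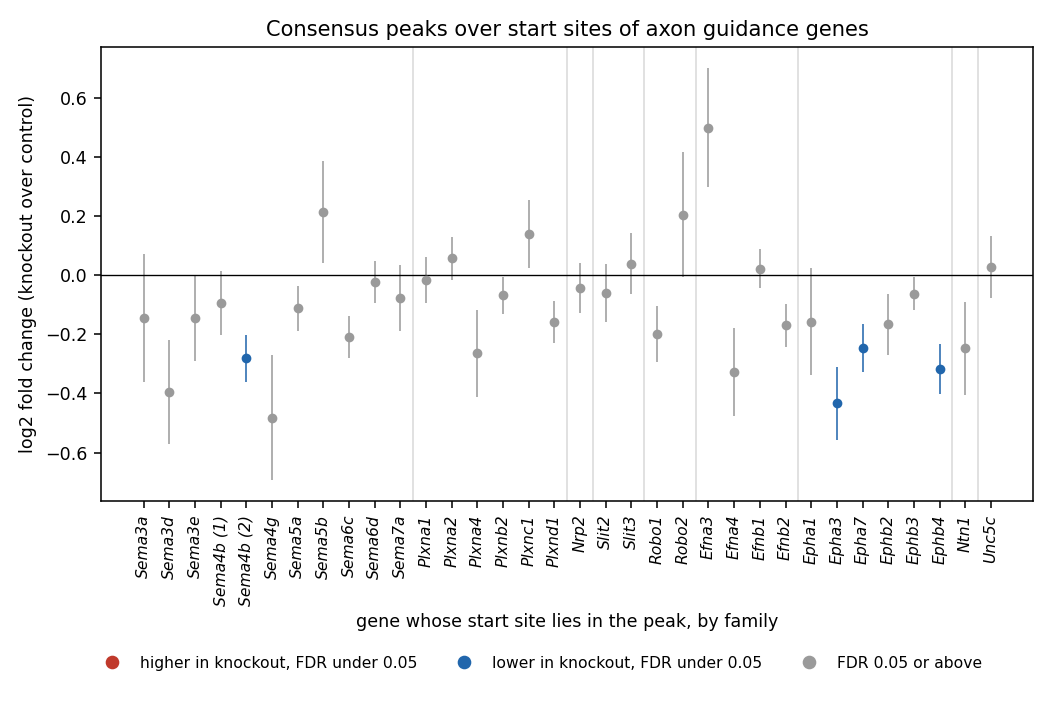
Log2 fold (knockout over control, vertical axis) of the 34 consensus peaks that cover a solved start site, by gene and family; points are deposited folds and bars the implied SE. The 4 blue points, at Sema4b, Epha3, Epha7 and Ephb4, were lost, 0 were gained, and 8 of 34 points lie above 0.

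Within 1 kb of a start site lay 12 annotated member peaks, each assigned to a different gene, and 4 of these were lost and 0 gained. Of all 1615 annotated peaks that near to a start site, 35.6% were called, 24.7% lost and 10.9% gained. Beyond the called peaks of Epha3, Epha7, Ephb4 and Sema4b, Sema6c had a log2 fold of -0.21 (deposited FDR 0.0550), Sema3d -0.39 (deposited FDR 0.172), Sema4g -0.48 (deposited FDR 0.167) and Efna4 -0.33 (deposited FDR 0.180). Efna3, Sema4a, Sema4d and Plxna4os1 had uncalled folds above 0, from 0.35 to 0.77. The other member peaks lay farther out: 57.1% were in introns, against 47.4% of all annotated peaks, and 23.8% lay beyond 100 kb of the start site, against 12.5%. The median distance was alike, at 21685 bp for members and 21815 bp for all annotated peaks.

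Counted without regard to the p of each peak, 310 consensus peaks lay within 50 kb of a member's start site, with 20 gained, 12 lost and a median log2 fold of 0.0092. Start sites were solved only for genes with an annotated peak, for members and background alike. The choice of genes in these windows and in the start-site counts therefore still depended on p, and family genes without an annotated peak are left out. The called share was 10.3%, against 7.49% of the 44618 peaks within 50 kb of any solved start site (4.45% gained and 3.05% lost), and the median over those was 0.012. Of the 20 gained peaks in these windows, 6 were Nrp2 peaks.

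Direction went with signal in the whole table. Of the 8593 weakest consensus peaks, 112 were gained and 16 lost, at a median log2 fold of 0.12. Of the 8593 strongest, 194 were gained and 654 lost, at a median of -0.06. Gained member peaks had a median of 6.98 CPM, against 26.6 CPM for lost ones, and over all annotated peaks these medians were 8.17 and 17.5 CPM. Of the 62 members above the median signal of all consensus peaks, 15 were gained (24.2%) and 12 lost (19.4%) with a median log2 fold of -0.21. Among all annotated peaks above it, 19.2% were gained and 19.0% lost, also at a median of -0.21. Of the 43 members at or below it, 10 were gained (23.3%) and 0 lost with a median of 0.60. Among all annotated peaks there, 15.0% were gained and 3.76% lost, at a median of 0.55. The member medians thus lay close to those of all annotated peaks. With the running median subtracted, the 2699 gained and 2134 lost calls over all consensus peaks became 2727 and 1328. Among the members, 18 of the 25 gained peaks and 5 of the 12 lost ones stayed called. The 14 calls that ended were, among gained peaks, those of Plxna1, Plxna4, Sema6c, the intergenic Sema6d peak, the Nrp2 peak at 0.49 and the Efnb2 peaks at 0.51 and 0.64, and, among lost peaks, those of Epha7, Ephb3, Ephb4, Sema3d, Sema4b and both of Efna5. Among the peaks above the median signal, the largest called folds were 0.65 for Nrp2, 0.59 for Efnb2 and 0.56 for Plxnb2, and -0.65 for Slit3, -0.53 for Sema7a and -0.43 for Epha3.

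**Figure D5:**
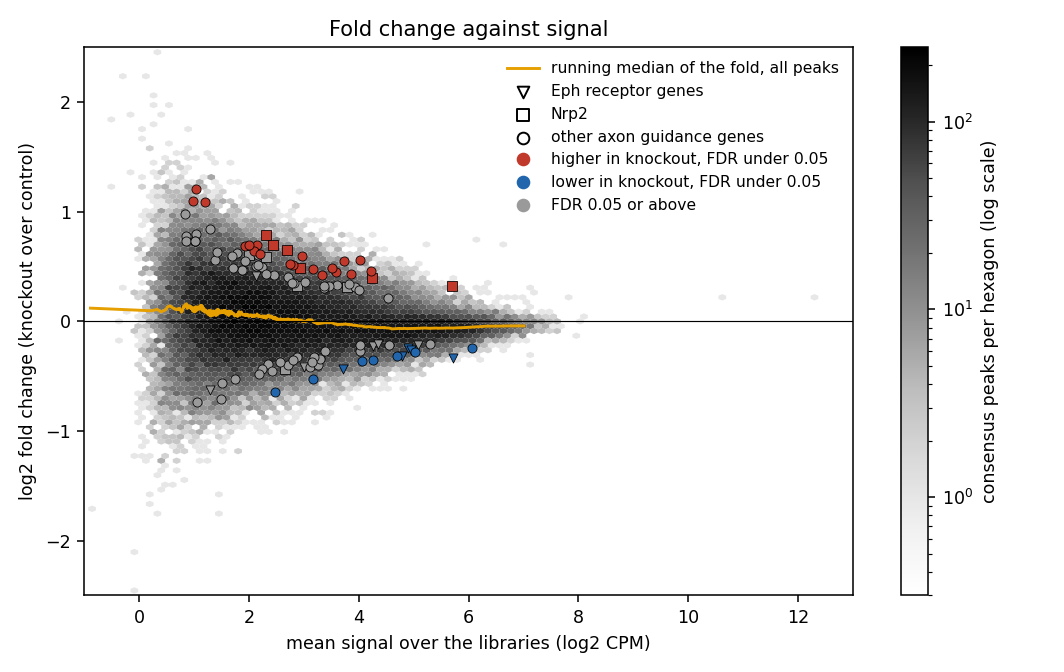
Log2 fold (knockout over control, vertical axis) against mean log2 CPM (horizontal axis) for all 85925 consensus peaks in grey hexagons shaded by their number on a log scale, with the running median in orange and the 105 member peaks as points. Triangles are Eph receptors and squares Nrp2; red points were gained, blue lost and grey not called, and blue points lie farther to the right (median 26.6 CPM) than red ones (median 6.98 CPM).

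The deposited spread followed signal almost alone, because log2 CPM accounted for nearly all differences in the log2 SE (r squared 0.997, slope -0.52, 81527 peaks). A peak's own variation between libraries therefore barely entered the test, and when a coefficient of variation of 0.1 between libraries was assumed on top, 0 of the 37 member calls stayed, against 48 gained and 7 lost peaks over the whole table.

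Partners and effectors of the same pathways outside the families gave 90 annotated peaks of 41 genes, from a list of 61 genes, with 15 gained and 15 lost and a median log2 fold of 0.23. Their called share, 33.3%, lay near the 30.6% of all annotated peaks. By gene, 12 had a gained peak and 13 a lost one, with the Vegf receptor gene Kdr in both counts. Limk1, a kinase that acts on the actin regulator cofilin, was lost by 0.41 at a peak at the end of Gm10369 (deposited FDR 3.6e-05). Flrt3, an adhesion protein that also binds Unc5 receptors, was gained by 0.90 at a peak inside Macrod2 (deposited FDR 6.88e-05). Ablim1, an actin-binding protein, was lost by 0.67, Dpysl2, which relays Sema3a signals to microtubules, was gained by 0.28, and the Rock2 promoter peak, at a kinase below RhoA, was lost by 0.25.

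Of the marker lists of other cells, that of macrophages stood farthest from the 30.6% called among all annotated peaks. Macrophage genes had 24 annotated peaks of 12 out of 15 listed genes, with 18 peaks of 11 genes gained and 0 lost (75% called). Osteoclast genes had 25 annotated peaks of 11 out of 12 genes, with 9 peaks of 7 genes gained and 1 lost (40% called), and endothelial genes had 12 peaks, with 1 gained and 4 lost, 3 of the lost ones at Erg (41.7% called). Called shares were lower for Schwann cell genes (1 of 8 peaks, gained at Mbp, 12.5%), neuronal genes (1 of 6, lost at Snap25, 16.7%) and periosteal mesenchyme genes (3 of 21, lost at Pdgfra and Twist1, 14.3%). Of the 10 mesenchyme markers, 9 had an annotated peak. The gained osteoclast peaks included those of Ctsk, the cathepsin K gene that drives the Cre, at log2 folds of 0.35 and 0.32 (deposited FDR 0.000778 and 0.0440). Whether the Cre construct had a part in the Ctsk peaks was not tested. Levels per library are not known for these lists, and their part in the gained Nrp2, Sema4d and plexin peaks was not tested.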

How the data were processed

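ATAC-seq libraries of 2 knockout and 2 control samples were compared by the authors. The submitters' processing notes name the build mm39 and, in no stated order, HOMER, DiffBind 3.16.0, deepTools 3.5.5, SAMtools 1.21, GATK 4.5.5.0, Bowtie2 2.5.4 and Trim Galore 0.6.10. No label or header names the peak caller, a shift of reads for the transposase or the normalization: not given in the sources. Per the file headers, the consensus table holds an F score, a p-value and an FDR for each peak from the authors' edgeR comparison, beside its log2 fold change and its mean signal in log2 CPM. The deposited annotation table has the layout of HOMER; tested on the values, its 15221 peaks are exactly those past a p of 0.05 with a log2 fold of 0.2 or more in either direction, which leaves 1834 peaks with p under 0.05 without a gene. The files give no counts per library, so library depths are unknown and no count model was run. There were 0 columns of unmapped libraries. Coordinates are given as deposited.

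From these tables the SE was taken as the size of the log2 fold divided by √F. Start sites were solved from the deposited distance and the strand; 99.6% of 3270 start sites with several peaks agreed within 2 bases. The running median of the fold was taken over 2000 peaks along signal. Promoter sequences and strands came from RefSeq (GRCm38.p6), used with no coordinates carried over. The running median and the arithmetic of the start sites were tested on simulated data, and the FDR adjustment was checked against the deposited FDR. The assumed variation was run on simulated data without such variation, so it was not tested, and neither were the other steps. Alternatives were the FDR threshold, a minimum fold, signal, distance, the running median and an assumed variation between libraries. The text names each called peak of Nrp2, up to 4 genes of smallest FDR in each class with the other called genes by name, member peaks within 1 kb of a start site, the 3 gained and 3 lost peaks of largest fold above the median signal, and up to 5 genes of the list of partners. Uncalled Sema3a, Sema3e, Slit2, Robo1, Ntn1 and Unc5c peaks and the peaks of equal value at 2.01 CPM were chosen after their values were seen. The members, lists and tests were chosen with earlier results of these data known. The computations used scipy 1.17.1, pandas 2.3.3, numpy 2.4.6 and matplotlib 3.10.9 in Python 3.11.15.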

Additional observations from a re-analysis of the deposited data

How the results depend on the processing

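Of 25 gained and 12 lost member peaks, 10 and 3 were called at an FDR under 0.01, 16 and 2 at an absolute log2 fold of at least 0.5, and 0 and 0 with an assumed coefficient of variation of 0.1. Above the median signal 15 gained peaks were called, and there the median log2 fold was -0.21 against 0.35. Over all annotated peaks the same medians were -0.21 and 0.30. With the running median subtracted 5 lost peaks were called, and over all consensus peaks lost calls went from 2134 to 1328. Of the 6 gained Nrp2 peaks, 3 had an absolute log2 fold of at least 0.5, and 0 were called with the assumed variation. The 20 gained and 12 lost peaks within 50 kb of a start site became 9 and 2 at an FDR under 0.01, 0 and 0 with the assumed variation, 11 and 7 within 20 kb and 34 and 19 within 100 kb. Of those windows' gained peaks 11 lay above the median signal, and of the lost ones 2 had an absolute log2 fold of at least 0.5 and 6 were called with the running median subtracted. In single member peaks, the running median ended 14 calls and added 2 gained ones (Slit3 and Plxna2), with no sign reversed. The smaller counts under a stricter threshold, a fold limit, higher signal or shorter distance follow from fewer peaks passing; for the running median the cause was not tested. No paired analysis was possible because the tables give 1 comparison with no counts per library, and for the same reason no replicate could be left out. Library depths are unknown; below the median signal, the 10 called members had log2 folds of at least 0.61.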

Other observations

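Among the partners outside the families, of whose peaks 33.3% were called against 30.6% of all annotated peaks, a few more genes are given by value; they were singled out after their values were seen. Srgap2 and Srgap3 encode GTPase-activating proteins that bind Robo receptors. Srgap3 was gained in intron 1 of 21 by 0.64 (SE 0.141, 9.49 CPM, deposited edgeR FDR 0.00105) and by 1.42 at a weak peak of 1.40 CPM (deposited FDR 0.0230). Srgap2 was gained by 0.90 in intron 2 of 22 (SE 0.191, 5.23 CPM, deposited FDR 0.000543). Neo1, a receptor of netrins and of repulsive guidance molecules, was lost over its start site by 0.26 (30.6 CPM, deposited FDR 0.0285) and by 0.80 at a peak 50913 bp upstream (4.73 CPM, deposited FDR 0.00956). With the running median subtracted, the call over the Neo1 start site ended (FDR 0.143) and that of the upstream peak stayed (FDR 0.00559). Flrt3 had 3 gained peaks, at log2 folds of 0.90, 1.09 and 0.91 and signals of 6.66, 2.29 and 3.07 CPM. They lay in introns of Macrod2, at 111895, 175469 and 192205 bp upstream of Flrt3.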
